A study of Rattus norvegicus with 20 samples.

Results

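The stimulation effect at the lesion epicenter was measured in 4 RNA-seq libraries of 20 in the series: the spinal cord at the injury, from 2 stimulated and 2 control rats. The members were chosen by their labels, as the 4 libraries of region 4. All 4 animals were adult female Long-Evans rats of about 6 to 8 months with no genetic change named in the labels. Each had a unilateral contusion of the cervical cord at level 4 with a displacement of 0.7 mm, and an electrode array inserted in the opposite motor cortex 2 weeks later. From 1 week after implantation, the stimulated rats received 10 Hz cortical stimulation for 5 h a day over 1 week, in cycles of 5 min on and 2 min off, at 80% of the current that evoked a movement. The control rats had the same injury and implant and were connected without current, so both groups carry the lesion and the array and no uninjured cord was included. The tissue was a whole piece of gray and white matter at the lesion, so every value is a mixture of the cells there, and fewer cells of a type cannot be told apart from less RNA per cell.

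A contusion kills neurons and glia at its center and breaks the blood vessels. In the following weeks microglia and blood-derived macrophages take up myelin and cell debris, fill with lipid and persist in the lesion, astrocytes form a border around it, and fibroblasts deposit collagen inside. Lipid-laden phagocytes are known by scavenger receptors, lysosomal proteases and the transmembrane protein Gpnmb, and surviving neurons at the rim by their channels, receptors and transmitter transporters.

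At the epicenter, genes of lesion phagocytes and of the collagen scar were lower in both stimulated animals than in both controls for a larger share of their members than over all genes, and genes of ion channels and of excitatory synapses were higher for a larger share. The size differed between the stimulated animals, since the phagocyte genes were far lower in stimulated animal 2 than in stimulated animal 1. No gene passed an adjusted p of 0.05 in limma, 0 of 15210 genes tested (0.0%), with 341 genes at an unadjusted p under 0.05. With 2 animals against 2, an exact two-sided permutation test of a single gene cannot go below p = 0.333. The statements below are therefore about levels in 4 animals and about counts of genes whose 2 groups did not overlap. The lists were chosen with earlier results of these data known, so their shares beside that of all genes are descriptions and not tests.

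Of the 15210 genes, both stimulated animals lay above both controls for 1902 genes (12.5%) and below both for 1170 genes (7.69%). Each count of list genes at the epicenter below stands beside these 2 shares. At an unadjusted p under 0.05, 108 genes were higher (0.71%) and 233 were lower (1.53%), so 31.7% of them were higher. That share was 41.9% after quantile normalization and 28.6% after upper-quartile scaling. The median difference over all genes was 0.00 on the log2 scale. Values are FPKM, fragment numbers scaled by transcript length and by the size of the library, and every fold change is a difference of mean log2 FPKM, stimulated minus control, with 0.1 FPKM as the lowest value the table holds. The number of fragments behind each value is unknown from FPKM, so precision rests on the spread between animals.

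The 4 libraries held the labelled tissue and differed from each other in ways that did not follow the groups. The 11 detected spinal cord identity genes, Hox genes and glycine transmission genes, summed to between 90.5 and 105 FPKM, and the 6 cortical neuron genes to between 1.96 and 2.36 FPKM. Animals numbered 1 had higher values overall than animals numbered 2, by a median of 0.13 on the log2 scale in the controls and 0.27 in the stimulated animals. Hoxc8, which marks lower cervical and more caudal cord, also went with the number, at 8.13 and 2.59 FPKM in the controls and 5.59 and 2.00 FPKM in the stimulated animals. Over all genes, controls 1 and 2 minus stimulated animal 1 had medians of -0.06 and -0.19, and minus stimulated animal 2 medians of 0.19 and 0.07. List medians of single animals below are not corrected for these offsets. Stimulated animal 1 held more blood: its red blood cell genes summed to 318 FPKM, against 26.6 and 51.2 FPKM in the controls and 30.7 FPKM in stimulated animal 2.

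**Figure D1:**
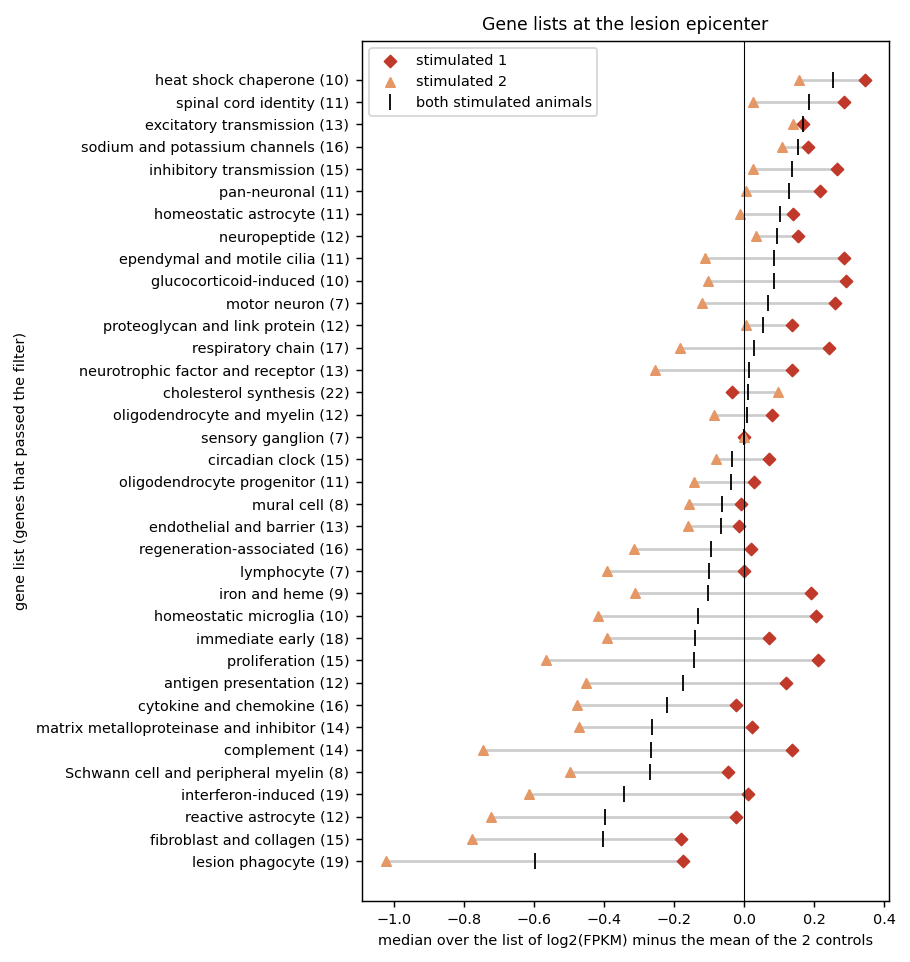
Median over each gene list of the log2 FPKM in stimulated animal 1 (diamonds) and stimulated animal 2 (triangles) minus the mean of the 2 controls, with the median over both animals as a black tick and the number of genes in parentheses, at the lesion epicenter. Over both animals the lesion phagocyte list lies lowest, at -0.60, with -0.18 in stimulated animal 1, where the scar list is as low, and -1.02 in stimulated animal 2, and the channel and excitatory lists lie above 0 in both.

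The lesion phagocyte list had the lowest median over both stimulated animals of the lists of 7 or more genes. All 19 genes were detected, 10 of them lay below both controls in both stimulated animals and 0 lay above, against 7.69% and 12.5% of all genes. The median difference was -0.60 and all 19 differences were below 0, while the median over all genes was 0.00. The 2 animals were not alike: the list's median against the control mean was -0.18 in stimulated animal 1, where 13 of 19 genes were below that mean, and -1.02 in stimulated animal 2, where 19 of 19 were. The controls themselves differed by a median of 0.43, which is more than the distance of stimulated animal 1 from their mean. Summed over the list, the controls held 8464 and 6552 FPKM and the stimulated animals 6997 and 3780 FPKM, so the sums of the groups overlap. Without stimulated animal 1, 19 genes lay below both controls, when 56.6% of all genes did, and without control 2, 17 genes lay below the other control, when 29.1% of all genes did.

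Gpnmb, a transmembrane glycoprotein of lipid-laden macrophages, had 434 and 322 FPKM in the controls and 293 and 120 FPKM in the stimulated animals. The difference was -0.9972 ± 0.53 (SE), with an unadjusted limma p of 0.132. Apoe, which carries lipid out of cells and was the most abundant gene of the list, had 4803 and 3922 FPKM in the controls and 3843 and 2141 FPKM in the stimulated animals. In both genes the 2 groups did not overlap, and stimulated animal 1 lay close to the lower control.

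Cd36, a scavenger receptor for oxidized lipids, had 2.48 and 3.03 FPKM in the controls and 1.06 and 0.83 FPKM in the stimulated animals. Here both stimulated animals lay far below both controls, with a difference of -1.55 ± 0.22 (SE) and an unadjusted limma p of 0.00212. Its adjusted p was 1 in the main fit and 0.0436 when 1 FPKM was required in at least 2 of the 4 epicenter libraries. Msr1, the class A scavenger receptor, had 3.87 and 1.72 FPKM in the controls and 1.44 and 0.55 FPKM in the stimulated animals, a difference of -1.54 ± 0.65. Lpl, the lipase that frees fatty acids from lipoproteins, had 11.5 and 7.34 FPKM in the controls and 5.69 and 3.19 FPKM in the stimulated animals, with an unadjusted limma p of 0.0468. Cd36 and Lpl were the 2 members of the list at an unadjusted p under 0.05.

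The other 5 members below both controls were Spp1, the secreted matrix protein osteopontin, Cd68, a lysosomal membrane protein, Clec7a, a receptor for fungal glucans, Abca1, the cholesterol exporter, and Itgax, an integrin of activated microglia. Cd68 had 45.2 and 32.6 FPKM in the controls and 31.9 and 13.1 FPKM in the stimulated animals. Clec7a had 22.8 and 17.9 FPKM in the controls and 14.7 and 7.11 FPKM in the stimulated animals. In each of these stimulated animal 2 had the lowest value and stimulated animal 1 lay between it and the lower control. The groups overlapped for the lysosomal proteases Ctsb, Ctsd and Ctss and for Trem2, Tyrobp, Lgals3, Cd63, Fabp5 and Plin2. Ctss, for example, had 490 and 307 FPKM in the controls and 503 and 277 FPKM in the stimulated animals, so the spread within each group was wider than the distance between the group means.

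**Figure D2:**
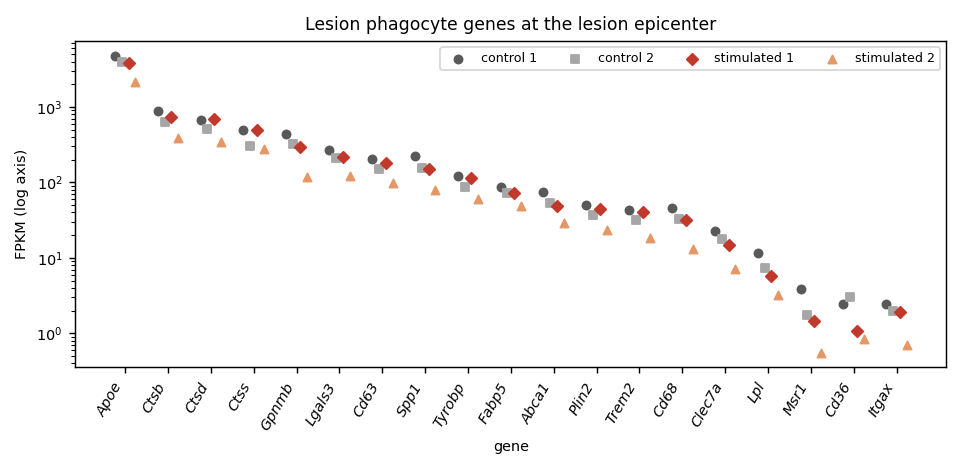
FPKM on a log axis of the 19 lesion phagocyte genes in each of the 4 epicenter libraries, ordered by mean level. Stimulated animal 2 (triangles) has the lowest value for all 19 genes, from Apoe at 2141 FPKM to Msr1 at 0.55 FPKM, and stimulated animal 1 (diamonds) lies near the controls for most of them.

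Promoter sequences were read for members of the phagocyte list because all 19 differences were below 0, although the groups overlapped for 9 of the genes. Of the 19 genes, 13 were found in RefSeq promoters of assembly GRCr8, a later build than that of the FPKM table. The 250 bases before the transcription start are shown for 4 members below both controls, 5′ to 3′ on the gene's strand, with TGAGTCA and CACGTG, or their reverse complements, in capitals. TGAGTCA is a letter string bound by AP-1 factors, and CACGTG is an E-box, a string bound by lysosomal gene regulators of the MiT/TFE family among others. Other strings that these factors can bind were not searched, so a window without capitals may hold them.
Gpnmb (GRCr8, chr4:79340878-79341127, plus strand): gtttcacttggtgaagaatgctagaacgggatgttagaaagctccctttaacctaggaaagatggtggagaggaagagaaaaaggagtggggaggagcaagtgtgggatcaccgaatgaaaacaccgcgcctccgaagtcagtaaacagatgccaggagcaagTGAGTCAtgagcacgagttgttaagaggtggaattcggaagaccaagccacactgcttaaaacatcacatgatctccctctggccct
Cd68 (GRCr8, chr10:54882442-54882691, minus strand): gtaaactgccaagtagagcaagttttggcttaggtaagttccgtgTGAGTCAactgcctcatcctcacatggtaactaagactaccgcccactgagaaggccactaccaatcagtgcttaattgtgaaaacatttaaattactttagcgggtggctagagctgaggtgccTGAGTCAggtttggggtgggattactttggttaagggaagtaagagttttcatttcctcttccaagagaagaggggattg
Abca1 (GRCr8, chr5:72596474-72596723, minus strand): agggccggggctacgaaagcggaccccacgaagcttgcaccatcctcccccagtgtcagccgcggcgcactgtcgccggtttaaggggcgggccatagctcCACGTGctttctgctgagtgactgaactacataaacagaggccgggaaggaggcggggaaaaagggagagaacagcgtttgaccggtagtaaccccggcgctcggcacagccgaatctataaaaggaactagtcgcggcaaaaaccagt
Cd36 (GRCr8, chr4:18246332-18246581, plus strand): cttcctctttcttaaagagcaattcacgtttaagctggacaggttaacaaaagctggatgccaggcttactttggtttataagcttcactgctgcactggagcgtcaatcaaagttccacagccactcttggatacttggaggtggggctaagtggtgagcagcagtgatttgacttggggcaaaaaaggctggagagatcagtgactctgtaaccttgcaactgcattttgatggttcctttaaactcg
On either strand, TGAGTCA was found for 4 of the 13 genes (Cd63, Cd68, Gpnmb and Itgax) and in 4.05% of 33469 promoters of the same length. A gene counted if any promoter listed for it held the string, while the percentages are over single promoters. CACGTG was found in 4 of 13 (Abca1, Cd63, Ctsd and Plin2) and in 5.59% of all. GAGGAAGT, a string bound by the macrophage factor PU.1, was found in 1 of 13 (Ctss) and 2.04% of all, and TGACCT, a string bound by nuclear receptors, in 3 of 13 (Ctss, Itgax and Trem2) and 14.1% of all. None of the 4 strings contains another on either strand. The window of Cd36 holds neither of the capitalised strings, which says only that these letters are not in it. Of the genes with a match, Cd63, Ctsd, Plin2, Ctss and Trem2 overlapped between the groups, so the matches are not particular to members below both controls. A match describes the letters of the window and no binding was measured.

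Mmp12, Cd5l and Ifitm1, which stood outside the phagocyte list, were also lower at the epicenter, and they were named after their values were seen. Mmp12, the macrophage elastase, had 7.78 and 3.37 FPKM in the controls and 1.54 and 1.12 FPKM in the stimulated animals. Cd5l, a protein secreted by tissue macrophages, had 5.10 and 3.14 FPKM in the controls and 1.12 and 0.41 FPKM in the stimulated animals. Both genes were listed at 0.1 FPKM in all 4 rostral libraries and in all caudal libraries except that of stimulated animal 2, where Mmp12 had 0.58 and Cd5l 0.42 FPKM. Ifitm1, an interferon-induced membrane protein, had 54.0 and 46.9 FPKM in the controls and 21.0 and 10.8 FPKM in the stimulated animals, a difference of -1.74 ± 0.36 (SE). In all 3 genes every stimulated value was less than the lower control value. The unadjusted limma p was 0.0147 for Mmp12, 0.0116 for Cd5l and 0.00817 for Ifitm1, and none of them was named by the ranking rule.

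Il18bp, which encodes the secreted inhibitor of interleukin 18, was among the 17 lower genes named by the rule of smallest p or largest difference. It had 8.16 and 5.76 FPKM in the controls and 2.70 and 2.50 FPKM in the stimulated animals, a difference of -1.40 ± 0.23 (SE) with an unadjusted limma p of 0.00366. The 2 stimulated animals were close to each other and apart from both controls. Plscr1, a phospholipid scramblase induced by interferon, and Fcrl2, an Fc receptor-like protein, showed the same order, with Plscr1 at 9.02 and 6.97 FPKM in the controls and 3.65 and 2.78 FPKM in the stimulated animals. These 3 genes, with Cd36, Cd5l, Mmp12 and Ifitm1, were among the 21 that passed an adjusted p of 0.05 in limma when 1 FPKM was required in at least 2 epicenter libraries, 4 of them higher and 17 lower. In the main fit none of the 21 passed. Of the 21, 10 carry provisional names. Many reached 1 FPKM only in the group where they were high, and such genes are favored by this filter. Fjx1, Rplp1, Ndufv3-ps1 and all of the higher genes except Cidea were among them. With it the prior degrees of freedom of limma, the weight given to the spread shared over genes, rose from 2.06 to 10.2.

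Other immune lists had medians below 0, mainly through stimulated animal 2. Of 14 complement genes, 3 lay below both controls (C1r, C1s and C5ar1) and 0 above, against 7.69% and 12.5% of all genes. The list's median of -0.27 was 0.14 in stimulated animal 1 and -0.75 in stimulated animal 2. C1qa, a chain of the complement starter C1q, had 289 and 147 FPKM in the controls and 272 and 108 FPKM in the stimulated animals, so the animal number separated the values and the treatment did not. The controls differed by a median of 0.84 over this list, and without control 1 its median was 0.18. All 19 interferon-induced genes had a difference below 0, with a median of -0.34, yet 1 of them, Oasl, lay below both controls, and without control 1 the median was 0.12. Of 16 cytokine and chemokine genes 2 lay below both controls, the monocyte attractants Ccl3 and Ccl7, and 0 above. Ccl7 had 0.97 and 0.61 FPKM in the controls and 0.43 and 0.22 FPKM in the stimulated animals.

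The 10 homeostatic microglia genes were spread over both sides, with 1 above (Selplg), 1 below (P2ry13) and a median of -0.13. Over all genes 12.5% lay above and 7.69% below both controls. Cx3cr1, the fractalkine receptor of microglia, had 50.2 and 34.9 FPKM in the controls and 51.3 and 31.8 FPKM in the stimulated animals. For antigen presentation, 1 of 12 genes lay above both controls and 2 below. RT1-Ba, a class II chain, had 7.95 and 5.04 FPKM in the controls and 13.6 and 8.09 FPKM in the stimulated animals, and Tap1, the peptide transporter of class I loading, had 3.80 and 2.96 FPKM in the controls and 2.95 and 2.16 FPKM in the stimulated animals. Neither of these reached an unadjusted p under 0.05. Of 7 lymphocyte genes 2 lay below both controls, Cd2 and the T cell co-receptor Cd8a, the latter at 7.82 and 4.41 FPKM in the controls and 4.15 and 1.49 FPKM in the stimulated animals.

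Neutrophil genes were the immune list with higher values. S100a8, a calcium-binding protein abundant in neutrophils, had 0.88 and 0.70 FPKM in the controls and 14.3 and 2.21 FPKM in the stimulated animals, a difference of 2.84 ± 0.97 (SE) with an unadjusted limma p of 0.0416. S100a9, its partner, and Ngp, a neutrophil granule protein, also lay above both controls, and Np4, a neutrophil defensin, was among the genes of largest difference. Most of the size came from stimulated animal 1, where the list summed to 30.4 FPKM against 4.29 FPKM in stimulated animal 2 and 2.78 and 2.96 FPKM in the controls. Hemoglobin was high in the same library: Hba1 had 145 FPKM there and between 11.0 and 22.2 FPKM in the other 3 libraries. The part of blood in the neutrophil values was not tested.

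Of the 15 detected genes of fibroblasts and collagen, 8 lay below both controls and 0 above, against 7.69% and 12.5% of all genes. The median difference was -0.40. The list's median against the control mean was -0.18 in stimulated animal 1, where 9 of 15 genes were below that mean. It was -0.78 in stimulated animal 2, where 14 of 15 were, while the controls differed by a median of 0.13. Summed over the list, the controls held 449 and 388 FPKM and the stimulated animals 464 and 336 FPKM, so the sums of the groups overlap. Col1a1, the main chain of scar collagen, had 13.9 and 13 FPKM in the controls and 10.9 and 7.83 FPKM in the stimulated animals, a difference of -0.54 ± 0.20 (SE). Col6a1, a chain of the collagen around cells, had 7.61 and 7.44 FPKM in the controls and 5.60 and 4.33 FPKM in the stimulated animals, with an unadjusted limma p of 0.0293. Lum, the proteoglycan lumican that orders collagen fibrils, had 6.53 and 7.30 FPKM in the controls and 5.06 and 3.75 FPKM in the stimulated animals, with an unadjusted limma p of 0.0337. In these 3 genes the controls were close to each other and both stimulated animals lay below them. Col3a1, Col5a1, Col6a2, Fn1 and Pdgfrb made up the rest of the 8, and Sparc, Mgp, Dcn and Ogn overlapped. Col1a2 is listed at 0.1 FPKM in every library, although its partner chain Col1a1 is not, so a value at 0.1 in this table can be a failed estimate.

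Peripheral myelin genes, which Schwann cells bring into a contused cord and its roots, were lower in part. Of 8 detected genes 4 lay below both controls and 0 above, against 7.69% and 12.5% of all genes, with a median of -0.27. Prx, a scaffold of the peripheral myelin sheath, had 5.76 and 5.49 FPKM in the controls and 3.98 and 3.80 FPKM in the stimulated animals. Gldn, which gathers sodium channels at peripheral nodes, had 1.91 and 1.93 FPKM in the controls and 1.05 and 0.87 FPKM in the stimulated animals, with an unadjusted limma p of 0.00468. For these 2 genes both stimulated animals lay about equally far below the controls, but the median of the whole list was -0.05 in stimulated animal 1 and -0.50 in stimulated animal 2. The sensory ganglion genes, which would mark attached root ganglia, overlapped in sum at the epicenter, at 43.7 and 27.6 FPKM in the controls and 34.0 and 29.5 FPKM in the stimulated animals. Their defining channels Scn10a and Scn11a were listed at 0.1 FPKM in all 4 libraries, and the list's median difference was 0.00.

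Central myelin showed no such lean. Of 12 oligodendrocyte and myelin genes 0 lay above or below both controls, and the median was 0.01. Mbp, the myelin basic protein, had 4521 and 3941 FPKM in the controls and 4610 and 4381 FPKM in the stimulated animals. Oligodendrocyte progenitor genes were divided, with 2 of 11 above and 1 below, against 12.5% and 7.69% of all genes.

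Reactive astrocyte genes had a median of -0.40, which was -0.02 in stimulated animal 1 and -0.72 in stimulated animal 2, with 3 of 12 below both controls and 0 above, but Gfap, the filament protein of reactive astrocytes, overlapped at 1836 and 1571 FPKM in the controls and 2159 and 1456 FPKM in the stimulated animals. The 3 below were Steap4, a metalloreductase induced by inflammation, Tnc, the matrix protein tenascin C, and Socs3, an inhibitor of cytokine signaling. Tnc had 2.13 and 1.92 FPKM in the controls and 1.46 and 1.20 FPKM in the stimulated animals, with an unadjusted limma p of 0.0329. Of 11 homeostatic astrocyte genes 5 lay above both controls and 0 below, where 12.5% of all genes lay above and 7.69% below. Their median of 0.10 was 0.14 in stimulated animal 1 and -0.01 in stimulated animal 2. Slc1a2, the glutamate transporter, had 217 and 226 FPKM in the controls and 241 and 289 FPKM in the stimulated animals. Kcnj10, the potassium channel of astrocytes, had 40.0 and 38.7 FPKM in the controls and 42.6 and 55.7 FPKM in the stimulated animals.

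Genes of ion channels, most of them neuronal, had slightly higher values in both stimulated animals. Of the 16 sodium and potassium channel genes, 10 lay above both controls and 0 below, against 12.5% and 7.69% of all genes, and the median difference was 0.15. The list's median was 0.18 in stimulated animal 1 and 0.11 in stimulated animal 2, and the controls differed by a median of 0.00. Stimulated animal 1 exceeded stimulated animal 2 by a median of 0.06 over this list and 0.27 over all genes. The 2 animals were therefore alike in FPKM but not relative to the rest of their libraries. The count was 6 after quantile normalization, when 18.7% of all genes lay above both controls, and 5 after upper-quartile scaling, when 15.98% did, with medians of 0.17 and 0.16. The list includes Kcnj10, the astrocyte channel given above, which had its largest difference, and without it 9 of 15 genes lay above. Scn8a, the sodium channel of the axon initial segment, had 22.2 and 22.01 FPKM in the controls and 25.0 and 23.8 FPKM in the stimulated animals, a difference of 0.14 ± 0.11 (SE). Kcna2, an axonal potassium channel, had 31.2 and 32.0 FPKM in the controls and 35.4 and 34.1 FPKM in the stimulated animals. Scn2a, another sodium channel of neurons, had 6.05 and 6.51 FPKM in the controls and 7.35 and 7.21 FPKM in the stimulated animals. No channel gene reached an unadjusted p under 0.05.

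Of 13 genes of excitatory transmission, 8 lay above both controls and 1 below, against 12.5% and 7.69% of all genes, with a median of 0.17. The AMPA receptor subunits Gria2 and Gria3 carried the clearest differences. Gria2, the subunit that limits calcium entry, had 14.1 and 15.0 FPKM in the controls and 17.6 and 17.7 FPKM in the stimulated animals, a difference of 0.28 ± 0.11 (SE) with an unadjusted limma p of 0.0667. Gria3 had 10.9 and 10.7 FPKM in the controls and 13.03 and 12.8 FPKM in the stimulated animals, a difference of 0.26 ± 0.11 (SE). The NMDA receptor subunits Grin1, Grin2a and Grin2b and the vesicular glutamate transporter Slc17a6 were also above both controls. The member below was Homer1, a postsynaptic scaffold with an activity-induced short form, at 9.90 and 8.45 FPKM in the controls and 7.21 and 6.37 FPKM in the stimulated animals. The count of 8 was 6 after quantile normalization and 5 after upper-quartile scaling, against the same 18.7% and 15.98% of all genes.

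For inhibitory transmission, 6 of 15 genes lay above both controls and 0 below, against 12.5% and 7.69% of all genes, with a median of 0.14. All 15 differences were above 0, but the list's median was 0.26 in stimulated animal 1 and 0.02 in stimulated animal 2. Stimulated animal 1 exceeded stimulated animal 2 by a median of 0.21 over the list, against 0.27 over all genes. Glra3, a glycine receptor subunit, had 1.55 and 2.098 FPKM in the controls and 2.66 and 2.87 FPKM in the stimulated animals, the largest difference of the list at 0.62 ± 0.22 (SE) with an unadjusted limma p of 0.0506. Slc32a1, the vesicular transporter of GABA and glycine, had 14.4 and 14.3 FPKM in the controls and 18.3 and 15.8 FPKM in the stimulated animals. Pan-neuronal genes gave 4 of 11 above and 0 below, and the axonal neurofilaments Nefl, Nefm and Nefh overlapped. Of 7 motor neuron genes 2 lay above and 0 below, and Chat, which makes acetylcholine, had 8.61 and 6.11 FPKM in the controls and 8.74 and 6.61 FPKM in the stimulated animals.

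**Figure D3:**
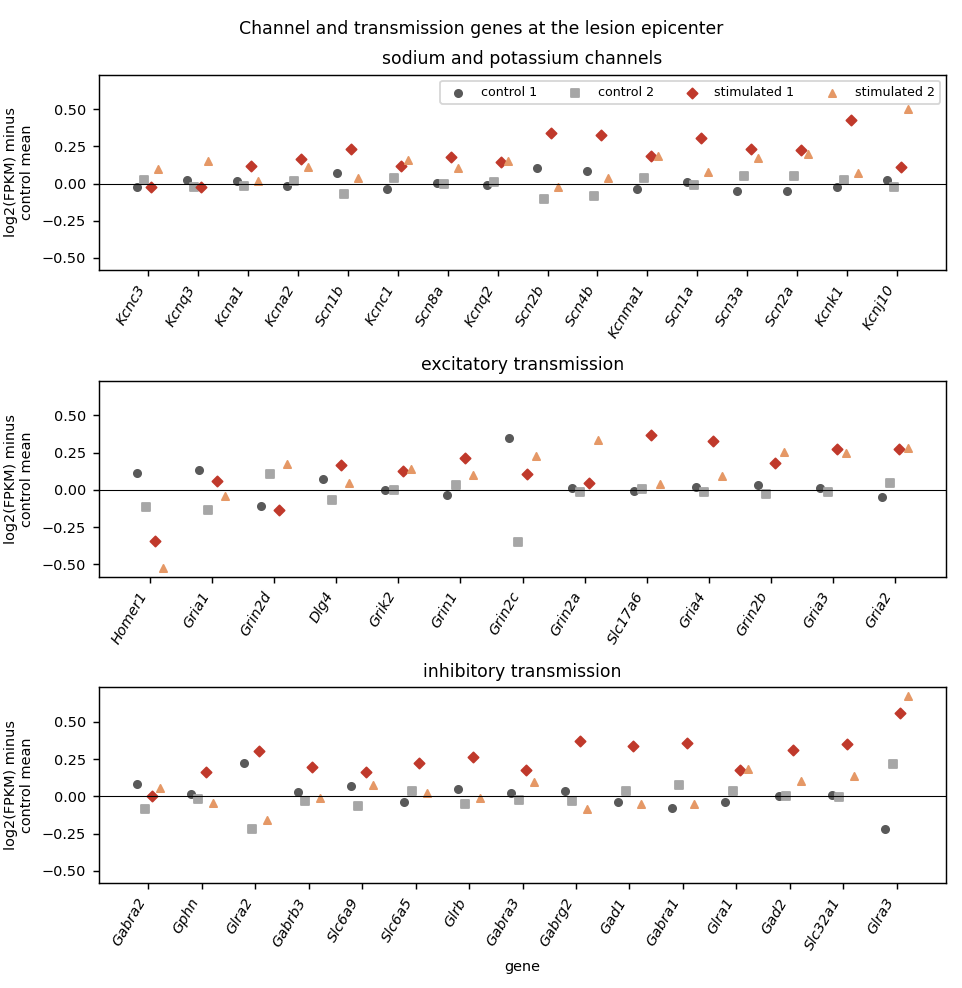
log2 FPKM minus the mean of the 2 controls for the 16 channel, 13 excitatory and 15 inhibitory transmission genes in each of the 4 epicenter libraries. For 10 channel genes and 8 excitatory genes both stimulated animals (diamond and triangle) lie above both controls, and Homer1 lies below them.

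As groups, genes that neuronal activity or injury is known to induce were not higher in both stimulated animals. Of 18 immediate early genes 1 lay above both controls and 3 below, against 12.5% and 7.69% of all genes. The list's median of -0.14 was 0.07 in stimulated animal 1 and -0.39 in stimulated animal 2. Fos, the classic activity marker, had 7.87 and 8.05 FPKM in the controls and 9.57 and 5.78 FPKM in the stimulated animals. Arc, the gene above, had 1.23 and 1.15 FPKM in the controls and 1.44 and 1.35 FPKM in the stimulated animals. Of 13 neurotrophic factor and receptor genes 4 lay above and 2 below, with a list median of 0.14 in stimulated animal 1 and -0.26 in stimulated animal 2. The neurotrophin receptors Ntrk2 and Ntrk3 were among those above, with Ntrk2, the receptor of Bdnf, at 45.3 and 43.5 FPKM in the controls and 47.5 and 52.7 FPKM in the stimulated animals. Bdnf itself had 0.56 and 0.65 FPKM in the controls and 0.62 and 0.60 FPKM in the stimulated animals. Of 16 regeneration-associated genes 2 lay above and 2 below, and the neuropeptide Gal, which injured neurons make, had 5.73 and 5.07 FPKM in the controls and 3.43 and 3.94 FPKM in the stimulated animals with an unadjusted limma p of 0.0317.

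Heat shock chaperones had 4 of 10 genes above both controls and 0 below, with a median of 0.25 that was 0.34 in stimulated animal 1 and 0.16 in stimulated animal 2. Cryab, a small chaperone of glia, had 106 and 88.2 FPKM in the controls and 138 and 120 FPKM in the stimulated animals. In the remaining lists, at most 4 genes lay on either side, where 12.5% of all genes lay above and 7.69% below both controls. Matrix metalloproteinases and inhibitors had 1 of 14 above and 3 below, Mmp12 among the latter. Proteoglycan and link protein genes had 4 of 12 above and 1 below, neuropeptides 3 of 12 above and 1 below, cholesterol synthesis 4 of 22 above and 1 below, iron and heme 2 of 9 above and 2 below, and glucocorticoid-induced genes 2 of 10 above and 0 below. Circadian clock genes had 1 of 15 above and 3 below, endothelial and barrier genes 0 of 13 above and 1 below, mural cell genes 1 of 8 above and 2 below, ependymal and motile cilia genes 1 of 11 above and 1 below, and proliferation genes 0 of 15 above and 1 below. The 17 respiratory chain genes and the 8 skeletal muscle genes overlapped throughout.

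To ask whether these differences were larger at the lesion than beside it, the same animals were compared in the cord just rostral and just caudal to the injury. The difference of the stimulation effect was tested on within-animal differences between the epicenter and each neighbor. Against the rostral cord 0 genes passed an adjusted p of 0.05 in limma (0.0%), with 256 lower (1.68%) and 381 higher (2.5%) at an unadjusted p under 0.05. Against the caudal cord 1 gene passed (0.00657%), with 387 lower (2.54%) and 76 higher (0.5%) at an unadjusted p under 0.05. The share that was higher depended on scaling: it was 59.8% against the rostral cord and 42.1% after quantile normalization or 37.0% after upper-quartile scaling, and 16.4% against the caudal cord and 50.2% or 37.7%. Within the neighbors themselves, both stimulated animals lay above both controls for 5.14% of genes and below for 24.7% in the rostral cord, and above for 18.5% and below for 6.07% in the caudal cord.

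The lesion phagocyte genes were not lower in the neighbors. Their median difference was 0.01 in the rostral cord, where 0 lay above and 2 below both controls, and 0.18 in the caudal cord, where 6 lay above and 1 below. The difference of the effect had a median of -0.49 against the rostral cord, with 5 of 19 genes at an unadjusted p under 0.05, and -0.82 against the caudal cord, with 4 of 19. Cd68 differed by -1.22 against the rostral cord with an unadjusted limma p of 0.00844, and Clec7a by -1.13 with 0.00541. Gpnmb differed by -1.06 with 0.0121. None of these passed the adjustment over all genes.

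For the scar and peripheral myelin lists the contrast with the caudal cord was wider, and the caudal values of the stimulated animals were higher. Fibroblast and collagen genes had a caudal median of 0.89 with 11 of 15 above both controls, and a difference of the effect of -1.26 with 7 genes at an unadjusted p under 0.05. Peripheral myelin genes had a caudal median of 0.72 with 8 of 8 above, and a difference of -1.28 with 7 genes at an unadjusted p under 0.05. In the rostral cord their median was 0.36 with 4 of 8 above, and the difference against it was -0.81, with 0 of 8 genes at an unadjusted p under 0.05. Sensory ganglion genes moved with them: 7 of 7 lay above both controls in the caudal cord, with a median of 3.43, and the list summed to 35.4 and 39.5 FPKM in the controls and 51.8 and 76.3 FPKM in the stimulated animals there. The sums rose far less than that median, which rests on members at low level in the controls. Scn10a and Scn11a, listed at 0.1 FPKM in every epicenter library, passed the filter only through other regions. The part of root ganglion tissue in the caudal values was not tested. At the epicenter the scar and peripheral myelin lists had medians below 0, and the part of nerve root tissue in those values was not tested either. In the rostral cord the scar genes had a median of 0.05, and the difference of the effect against it had a median of -0.41, with 2 of 15 genes at an unadjusted p under 0.05.

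The channel genes were lower in both neighbors. Their median was -0.17 in the rostral cord with 9 of 16 below both controls, and -0.12 in the caudal cord with 8 of 16 below. The difference of the effect had a median of 0.31 against the rostral cord, with 5 of 16 genes at an unadjusted p under 0.05, and 0.27 against the caudal cord, with 0 of 16. Kcna2 differed by 0.38 against the rostral cord with an unadjusted limma p of 0.0221. Excitatory genes gave a median of 0.28 against the rostral cord, with 4 of 13 genes at an unadjusted p under 0.05, and 0.25 against the caudal cord with 0 of 13. The rostral medians stand against a median of -0.07 over all genes in that region.

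**Figure D4:**
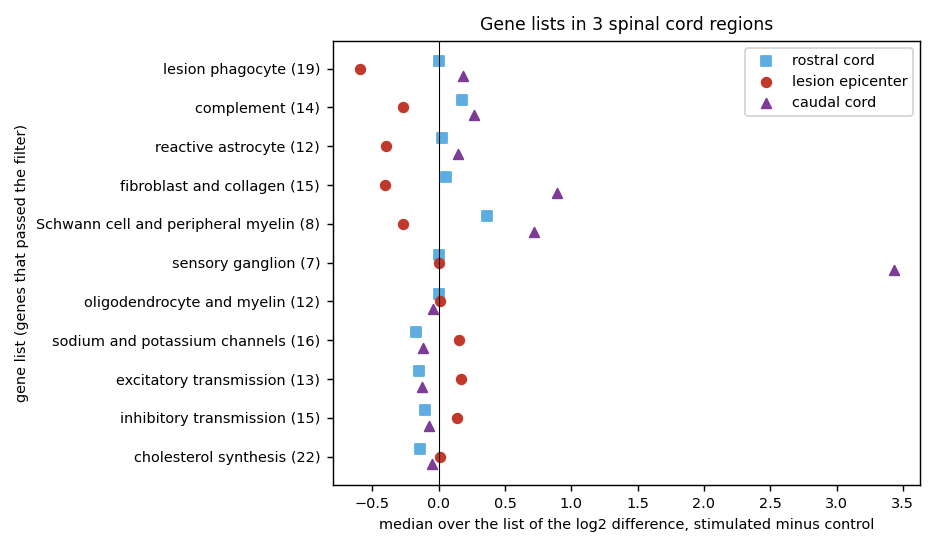
Median log2 difference, stimulated minus control, of 11 gene lists in the rostral cord (squares), the lesion epicenter (circles) and the caudal cord (triangles). The phagocyte, complement, astrocyte, scar and peripheral myelin lists lie below 0 at the epicenter and at or above 0 in both neighbors, and the channel and transmission lists show the opposite order. The sensory ganglion list stands at 3.43 in the caudal cord, a median that rests on members at low level in the controls.

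Several of the genes with the smallest p at the epicenter differed in the same direction in the other regions of the same animals. Fjx1, which encodes a Golgi protein of the Fat and Dachsous pathway, had 10.2 and 5.62 FPKM in the controls and was listed at 0.1 FPKM, the floor, in both stimulated animals, so no fold is given. Its adjusted limma p was 0.193. In the rostral cord it had 10.8 and 5.58 FPKM in the controls and 0.11 and 0.14 FPKM in the stimulated animals, and in the caudal cord 11.8 and 5.81 against 0.19 and 0.13 FPKM. In the cerebral white matter of both hemispheres it was between 8.71 and 19.7 FPKM in the controls and between 0.16 and 0.35 FPKM in the stimulated animals. The gene thus separated the 2 stimulated rats from the 2 controls in all 5 regions, near the lesion or far from it. With 2 animals a group, a difference between the animals that preceded the stimulation cannot be told apart from an effect of the stimulation. Its pathway partners Fat4 and Dchs1, named after their values were seen, overlapped at the epicenter, with Dchs1 at 5.49 and 4.52 FPKM in the controls and 4.63 and 5.09 FPKM in the stimulated animals.

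Cidea, a protein of lipid droplets, had 1.81 and 1.96 FPKM in the controls and 7.19 and 6.35 FPKM in the stimulated animals, a difference of 1.84 ± 0.17 (SE) with an adjusted limma p of 0.571. Both stimulated animals were above both controls, by 2.21 on the log2 scale in the rostral cord and 2.41 in the caudal cord as well, and the difference of the effect was -0.37 ± 0.29 (SE) against the rostral and -0.57 ± 0.41 against the caudal cord. Pbx3, a homeodomain factor of spinal interneurons, had 10.6 and 10.2 FPKM in the controls and 16.9 and 22.4 FPKM in the stimulated animals, with differences of 0.90 at the epicenter, 0.55 in the rostral and 0.79 in the caudal cord. For Wdr27 both stimulated animals were above both controls in all 3 cord regions, by 1.05 at the epicenter, 0.58 in the rostral and 0.67 in the caudal cord. Adtrp, at 1.03 and 1.02 FPKM in the controls and 1.83 and 1.59 FPKM in the stimulated animals of the epicenter, overlapped in the caudal cord. In the rostral cord Cd36, Il18bp and Ifitm1 overlapped between the groups, with differences of 0.40, -0.32 and -0.13.

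**Figure D5:**
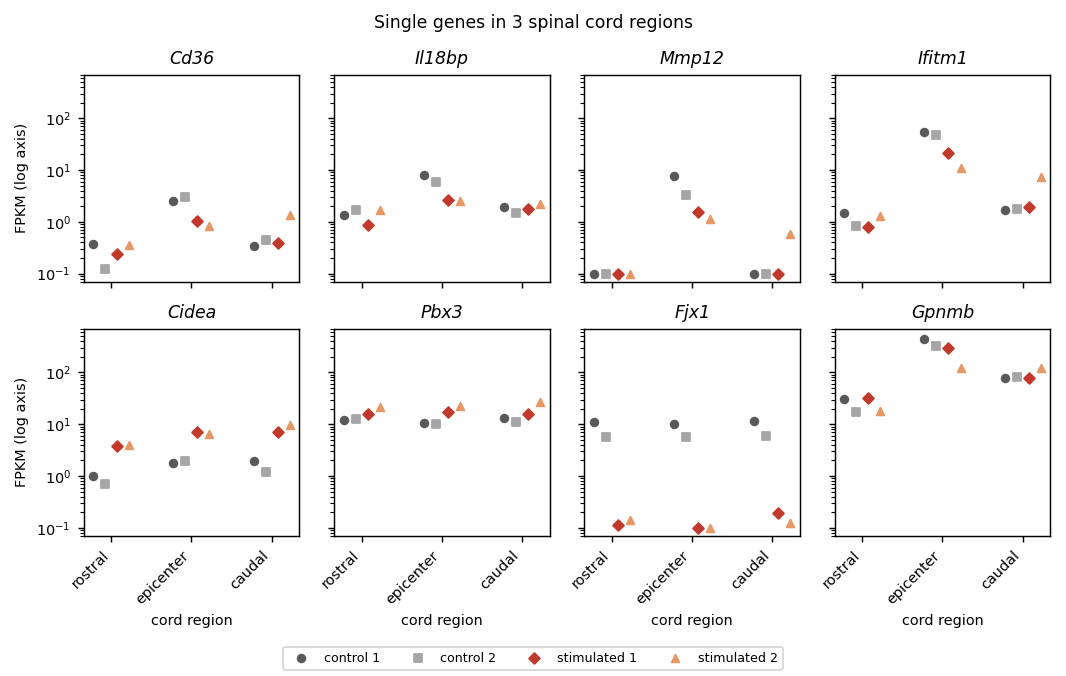
FPKM on a log axis of 8 genes in the rostral cord, lesion epicenter and caudal cord of each animal. For Cd36, Il18bp, Mmp12, Ifitm1 and Gpnmb the controls are highest at the epicenter and both stimulated animals lie below them there, while Cidea, Pbx3 and Fjx1 separate the stimulated animals (diamonds and triangles) from the controls in all 3 regions.

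The rule for ranked genes named 17 genes in each direction out of 75 eligible higher and 265 eligible lower genes, where eligible means no overlap, 1 FPKM or more as the average of either group and at least a 1.5-fold difference. Of the 17 higher genes 10 carry provisional names, with means of at most 1.84 FPKM. Both controls were listed at the floor for 2 of these, and the other 8 had differences between 0.77 and 3.37. Tmem258, the named higher gene not given above, had 2.41 and 0.1 FPKM in the controls and 4.63 and 7.92 FPKM in the stimulated animals. Of the 17 lower genes 10 carry provisional names, with differences between -3.11 and -1.22. Ndufv3-ps1, a pseudogene by its name, Palldl1, Higd2al1 and Rplp1 were also among them. Rplp1, an acidic ribosomal protein with many near-identical copies, had 4.72 and 1.65 FPKM in the controls and 0.11 and 0.10 FPKM in the stimulated animals, and its values, like those of the provisional and pseudogene entries, are uncertain because reads can be split between copies.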

How the data were processed

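Bulk RNA-seq was made by the authors from 5 regions of 4 rats, and the 4 lesion epicenter libraries are analysed here, with the rostral and caudal cord of the same animals for comparison. Ribosomal RNA was depleted and paired reads were sequenced by the authors, who checked them with FastQC and MultiQC 1.6 and, per the labels, used TopHat2 2.1.0 and Cufflinks 2.2.1. They deposited FPKM values per gene, scaled by transcript length and mapped fragments, with values under 0.1 already raised to 0.1. The build was Rnor6, the annotation version is not given in the sources used here, and no coordinates on that build are given. Whether counting used strand is not given in the sources used here, so overlapping and antisense genes are uncertain. The table holds 30443 genes and 0 columns without a sample. Replicates are different animals.

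Genes of at least 1 FPKM in any of the 20 libraries were kept, 15210 in all (13925 protein coding, 1285 long non-coding). limma 3.58.1 in R 4.3.3 (lmFit, eBayes with trend) was fitted to log2 FPKM of the 4 epicenter libraries, and to within-animal differences between regions, with Benjamini-Hochberg adjustment over all genes and a threshold of 0.05. P-values measure the spread between 2 animals a group. Other steps used Python 3.11.15, numpy 2.4.6, pandas 2.3.3 and matplotlib 3.10.9. For a repeated symbol (56 of them) the entry with the larger average over libraries stood for the gene.

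Named genes are the members of 40 gene lists (529 symbols, 507 in the table, 467 kept) and, in each direction, the 12 of smallest unadjusted p and the 8 of largest difference among genes without overlap of the groups, 1 FPKM or more as the average of either group and a 1.5-fold difference, and any gene past the adjusted threshold. The members and lists were chosen with earlier results of these data known. No set test was run. Some members of the lists are counted but not reported here by name.

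The scripts were tested on simulated data. Alternatives were other floors, filters and scalings, eBayes without a trend, 1 model of all 20 libraries, the replicate number as a block and leaving out each animal.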

Additional observations from a re-analysis of the deposited data

Results flagged for a closer look

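The difference of the stimulation effect between the lesion epicenter and the caudal cord passed the adjusted threshold for 1 gene, Tyrp1, a melanosome protein of pigment cells. It was listed at 0.1 FPKM in all 4 epicenter libraries and in both control caudal libraries, and at 2.90 and 2.74 FPKM in the caudal cord of the stimulated animals. The difference was -4.82 on the log2 scale, set by the floor of 0.1 FPKM, with an adjusted limma p of 0.0201. It therefore describes the caudal tissue of the stimulated animals and not the epicenter. In the same 2 caudal libraries the sensory ganglion and peripheral myelin genes were higher, and their part in this value was not tested. The call was lost with a floor of 0.5, with no filter, with either other scaling, without a trend and without stimulated animal 2.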

How the results depend on the processing

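No gene named by rank turned its direction. With 1 animal left out this was fixed in advance, because the rule admitted only genes whose groups did not overlap. The balance of genes at an unadjusted p turned from 59.8% higher against the rostral cord to 42.1% after quantile normalization and 37.0% after upper-quartile scaling. Among list medians with no test, complement (0.18), interferon-induced (0.12), proliferation (0.09), homeostatic microglia (0.08) and antigen presentation (0.07) genes lay above 0 without control 1. In all, 25 of the 40 list medians turned sign without at least 1 animal, and those of the phagocyte, scar, reactive astrocyte, peripheral myelin, channel, excitatory and inhibitory lists did not. At the epicenter, the 0 genes past the adjusted threshold became 21 with 1 FPKM required in at least 2 of the 4 libraries, 1 (Fjx1) in 1 model of all 20 libraries, and 8 to 140 when 1 animal was left out. A lone animal is then assumed to vary like the other group. The 341 genes at an unadjusted p became 649 with no filter, 733 after quantile normalization, 756 after upper-quartile scaling and 446 to 1001 with 1 animal left out. The 1170 genes below both controls became 1823, 2246 and 2541 under the first 3 of these, and 1803 to 8608 with 1 animal left out, when fewer values must separate. Those above became 2947 to 8733.

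Against the rostral cord, 14 genes passed with the stricter filter, and the 637 at an unadjusted p became 1201, 1049 and 992 with no filter, quantile normalization and upper-quartile scaling, and 410 to 790 with 1 animal left out. Against the caudal cord, the 1 gene became 2 on log2(FPKM + 1), 0 with a floor of 0.5, 5 with no filter, 191 with the stricter filter, 0 after quantile normalization, 0 after upper-quartile scaling, 0 without a trend and 0 to 324 with 1 animal left out. The 463 at an unadjusted p became 1242 and 1303 under the 2 scalings and 645 to 4692 with 1 animal left out. The cause of these shifts was not tested.

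The channel genes above both controls numbered 6 and 5 under quantile and upper-quartile scaling, and the excitatory genes 5 under the latter. Phagocyte genes below numbered 10 to 19 and scar genes 8 to 14 with 1 animal left out. The median of the excitatory list, 0.17, was 0.15 on log2(FPKM + 1), 0.21 after quantile normalization and 0.14 to 0.20 with 1 animal left out. That of the channel list was 0.11 to 0.18, that of the scar list -0.78 to -0.18 and that of the phagocyte list -1.02 to -0.18 with 1 animal left out. Counts of the lists under other scalings and with 1 animal left out were chosen after seeing the data.

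The stimulated and control animals share only the replicate numbers 1 and 2, which name different animals. The deviations of same-numbered animals had a correlation of 0.32 over genes, and with 2 numbers a pairing cannot be shown. With the replicate block the unadjusted counts were 945 at the epicenter, 1633 against the rostral and 958 against the caudal cord, and the adjusted counts were 0, 0 and 436. FPKM carry no counts, so the fragments behind each gene are unknown here, and 2 animals a group limit every value. The study reports the reads, mapping rates and RNA integrity of each library, which were not used in the fits.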
